A study of Arabidopsis thaliana with 16 samples.

Results

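A set of 110 probe sets, of 22746 tested, lay lower after heat in each of 4 genotypes of Arabidopsis thaliana seedlings. The members were chosen on the measured values: the mean of the 2 heated arrays lay at least 1.3 below the mean of the 2 unheated arrays, on the log2 scale, in A2QK, in QK, in hsfa2 and in WT. Affymetrix control probe sets and genes encoded in the plastid or mitochondrion were left out. The heat changes of the members are therefore given as descriptions, without a test. Of the members, 47 are listed with a single gene and are named here by symbol or locus code, 1 is listed with several genes, and 62 have no listed gene and stay unnamed.

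The study used whole seedlings aged 7 days, grown at 22 °C and either moved to a water bath at 37 °C for 1 h or kept at 22 °C, with the question of which heat-responsive genes depend on the HSFA1 factors and which on HSFA2. A2QK is the line A2QK-10, in which the viral CaMV 35S promoter drives HSFA2 in QK. That promoter is active in most plant tissues, with or without heat, so the added HSFA2 is not under its own heat control there. QK is a quadruple knockout of HSFA1a, HSFA1b, HSFA1d and HSFA1e in mixed Col-0 and Ws plants. The hsfa2 line is a knockout of HSFA2 in Col-0, and WT is Col-0. Each of the 8 groups, heated and unheated, holds 2 arrays. In comparisons of QK with WT the lost factors and the mixed background cannot be told apart.

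HSFA1 proteins are the transcription factors that start the heat shock response of plants by switching on chaperone genes, and HSFA2 is one of their targets that prolongs it. The named members were sorted into classes of protein after the list was seen, and several of these classes hold proteins of the cell wall or cell surface. Outside the cell, proteases trim or remove other proteins, pectin methylesterases and glycosidases alter wall sugars, and class III peroxidases use hydrogen peroxide to stiffen or loosen the wall. The families of genes known only by a locus code are background from general knowledge of the Arabidopsis genome and not from the deposited files.

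All values are log2 levels made by the authors with RMA, a method that corrects, normalizes and summarizes Affymetrix probes. They ran from 1.58 to 13.35 over all probe sets, and array medians ran from 4.87 to 5.20. Between the 2 arrays of each group, r over probe sets was 0.959 to 0.995. The probe annotation used here lists no probe set, alone or with other genes, for the 4 disrupted HSFA1 genes or for HSFA2. Probe sets without a listed gene could not be searched, so the targeted genes are not analysed here. Of 14 small heat shock proteins, the classic heat-raised chaperones, 7 were measured, and heat raised 4 of them in A2QK, 0 in QK (6 at an unadjusted p under 0.05), 7 in hsfa2 and 7 in WT by limma. The heated QK arrays stood apart on these genes: the second read 6.37 to 9.50 and the first 2.45 to 5.19, and all 7 genes were higher on the second, by 3.01 to 5.96. In the other heated groups the gap between arrays was at most 0.27. HSP17.6B, HSP17.6C and HSP22 averaged 10.62, 11.23 and 10.99 in A2QK already at 22 °C. The rule gave 114 members without the second heated QK array, 100 of them shared with the 110, and 106 without the first, 98 of them shared. Nothing in the labels tells whether 2 arrays of one group stem from different cultures. The p-values hence rest on array-to-array spread alone, some or all of which could be technical. In whole seedlings, fewer cells of a type and less RNA per cell cannot be told apart.

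At 22 °C most members were transcripts of moderate to high level, and after heat the median member sat in the middle of the array's range. A probe set needs room to fall to reach the threshold, so this shift follows in part from the rule. The group medians of the 110 members after heat were 5.02 in A2QK, 5.12 in QK, 4.80 in hsfa2 and 5.13 in WT, against 7.23, 7.12, 7.10 and 7.11 in the same lines at 22 °C. Over all probe sets the heated medians were 5.0, 5.10, 4.87 and 4.98. After heat 56 members lay above the median of all probe sets, against 103 at 22 °C. The median member stood at the 50.2 percentile after heat and at the 79.4 percentile at 22 °C. A few ended near the bottom of the scale: 7 members in A2QK, 7 in QK, 12 in hsfa2 and 10 in WT had a heated mean under the lower quartile of all probe sets.

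**Figure D1:**
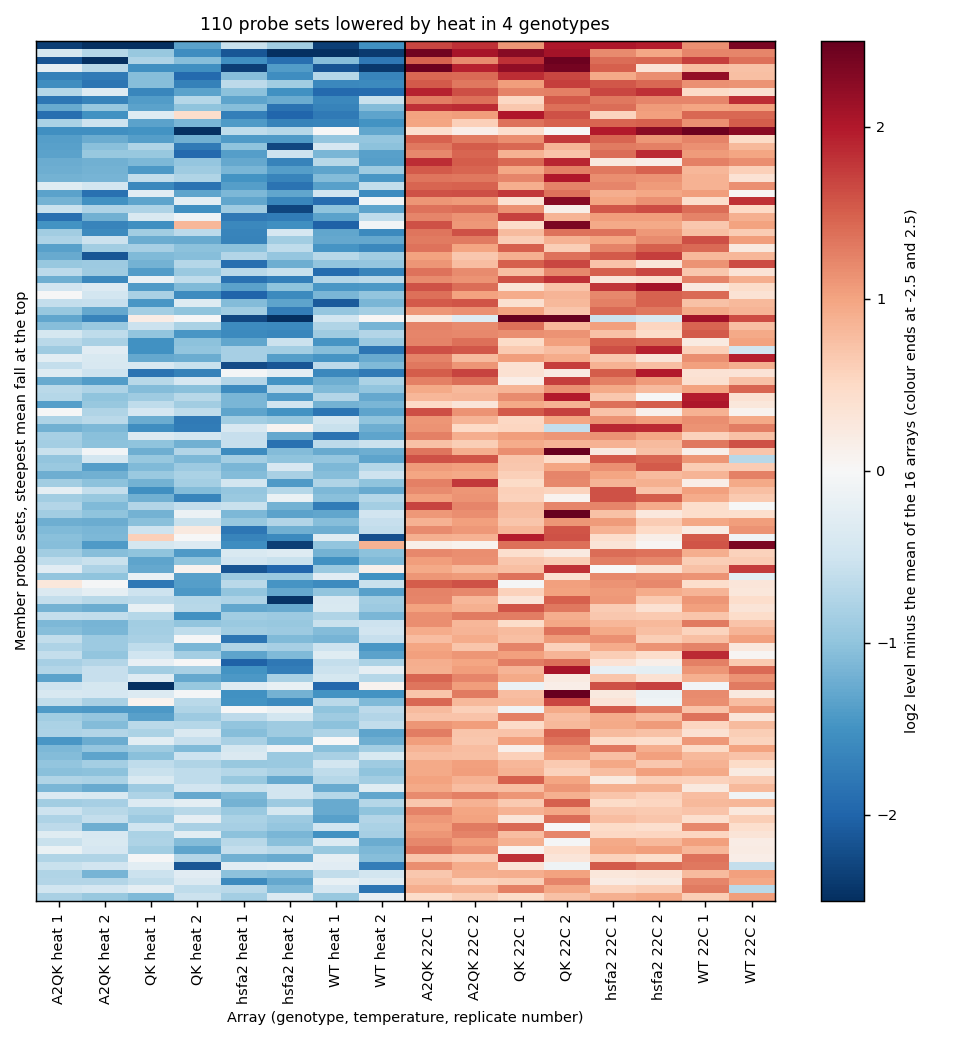
Log2 level of each of the 110 members (rows, steepest mean fall at the top) on each of the 16 arrays (columns, heated arrays left of the line), shown as the difference from the member's mean over the 16 arrays. Heated arrays are mostly blue and unheated arrays mostly red, as the choice of members requires, and the QK and WT arrays vary more within a group than those of A2QK and hsfa2.

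The median member changed by -1.98 in A2QK, -1.80 in QK, -2.05 in hsfa2 and -1.79 in WT, which is 3.94-fold, 3.49-fold, 4.13-fold and 3.47-fold lower after heat. The steepest single changes were -4.19, -3.84, -3.52 and -3.68 in that order of lines. A fall of at least 2 on the log2 scale was reached by 54 members in A2QK, 41 in QK, 57 in hsfa2 and 38 in WT. The 4 changes of a member came from separate arrays, though same-numbered WT and QK arrays deviated together from their group means. A2QK had the steepest of the 4 changes in 38 members, QK in 19, hsfa2 in 35 and WT in 18. The rule used these values, and the same count was not made over all probe sets. The lines also differed in how many of all probe sets reached the threshold, as given next.

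The threshold was reached by 662 probe sets in A2QK, 429 in QK, 636 in hsfa2 and 427 in WT, so the 110 shared members are 16.6%, 25.6%, 17.3% and 25.8% of those lists. In 106 of the 110, both heated arrays lay below both unheated arrays in each of the 4 lines. The rule compared the means of these same arrays. Such separation, here and for single members below, therefore follows largely from the choice of members. The cut through the list is not a gap: 27 probe sets lay within 0.1 inside the threshold and 44 within 0.1 outside. Just inside were sks15, a relative of the multicopper oxidases, with a weakest change of -1.31, in WT, and AT2G30620, a linker histone H1 gene, with -1.31 in QK. Just outside were AT2G43800, with -1.296 in WT, and AT4G17280, with -1.293 in hsfa2.

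Over all probe sets, heat lowered 9.21% of probe sets in A2QK, 4.34% in QK, 8.33% in hsfa2 and 5.33% in WT (limma, adjusted p under 0.05), and raised 6.59%, 2.52%, 5.61% and 3.31% in those lines. The members were chosen on these contrasts, and nothing is read from how many of them were called there.

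The gene with the steepest mean fall among named members was AT5G54370, related to late embryogenesis abundant proteins. After heat it read 5.15 and 4.69 in A2QK, 3.84 and 3.84 in QK, 3.04 and 3.98 in hsfa2 and 3.23 and 2.97 in WT, against 7.84 and 7.31 in A2QK, 7.60 and 7.78 in QK, 6.88 and 5.73 in hsfa2 and 6.16 and 6.11 in WT at 22 °C. The changes were -2.65 in A2QK, -3.84 in QK, -2.80 in hsfa2 and -3.04 in WT, a mean of -3.08 or 8.47-fold lower. Heated and unheated arrays lay apart in every line, and the heated A2QK arrays were the highest of the heated ones. A second gene of that kind, AT5G60530, changed by -1.75 in A2QK, -2.14 in QK, -1.82 in hsfa2 and -2.05 in WT. AT4G13580, a dirigent-like gene of a family that guides the coupling of phenolic radicals, read 4.14 and 4.06 in A2QK, 4.76 and 3.87 in QK, 4.75 and 4.28 in hsfa2 and 5.10 and 4.17 in WT after heat, against 7.26 and 7.23 in A2QK, 7.66 and 7.5 in QK, 6.77 and 6.99 in hsfa2 and 8.01 and 6.57 in WT at 22 °C. Its arrays also lay apart in every line, and the 2 WT arrays differed most from each other at both temperatures.

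**Figure D2:**
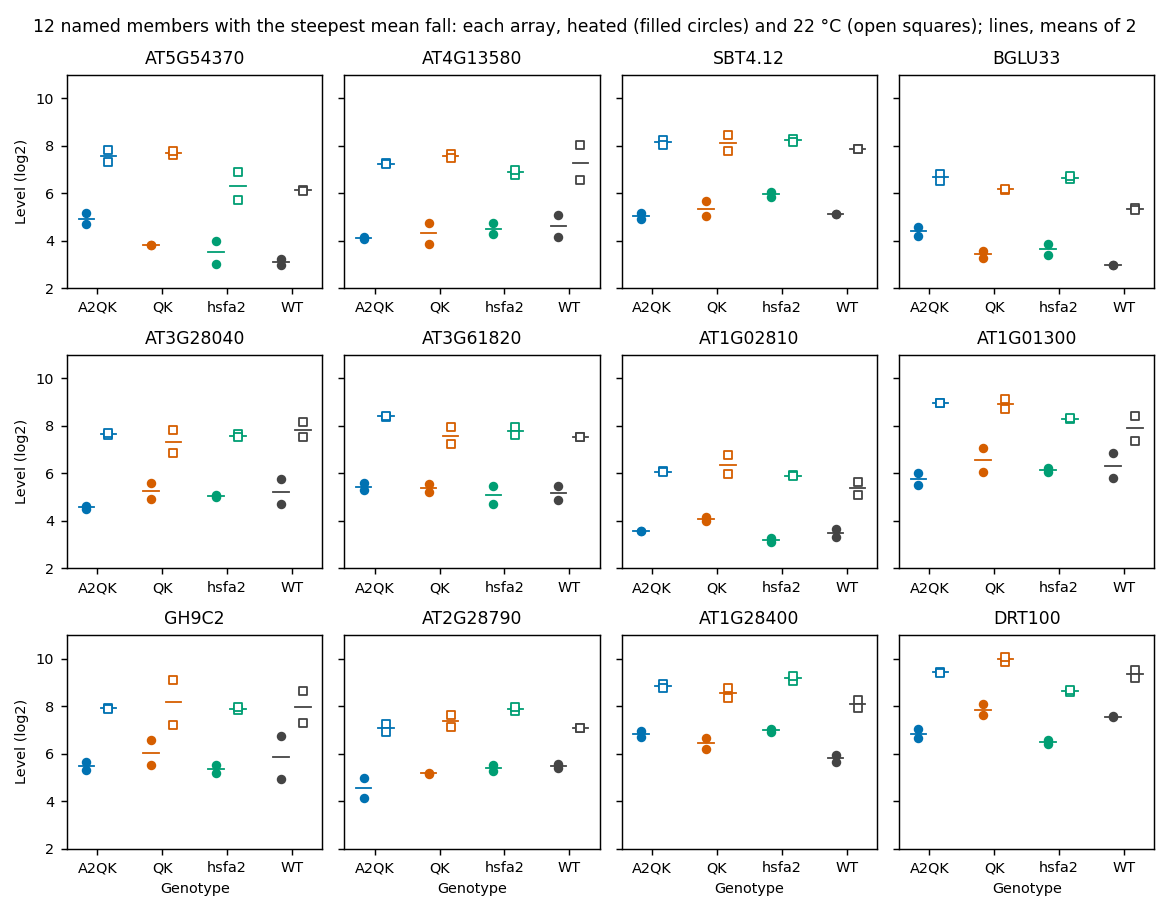
Log2 level (vertical axis) on each array for the 12 named members with the steepest mean fall, by genotype (horizontal axis), with heated arrays as filled circles, unheated arrays as open squares and the mean of 2 as a line. In all 12 panels both heated arrays lie below both unheated arrays of the same genotype, and AT5G54370 in heated QK reads 3.84 on both arrays.

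Proteases formed one of the largest classes, with 9 named members: 4 subtilases, which are serine proteases, and 5 aspartyl proteases of the pepsin type. Their mean changes ran from -2.72 to -1.52. SBT4.12, a subtilase, read 5.18 and 4.90 in A2QK, 5.67 and 5.04 in QK, 6.07 and 5.85 in hsfa2 and 5.12 and 5.14 in WT after heat, against 8.26 and 8.05 in A2QK, 7.78 and 8.46 in QK, 8.29 and 8.17 in hsfa2 and 7.87 and 7.85 in WT at 22 °C. Among the heated arrays those of hsfa2 were the highest, and every heated array lay below every unheated one. SBT1.3 changed by -2.15 in A2QK, -1.54 in QK, -1.73 in hsfa2 and -1.85 in WT, and AT2G05920 and AT4G30020 had mean changes of -1.76 and -1.69. Of the 7 subtilases that could be recognised by symbol over all probe sets, 2 were called in each line, SBT4.12 and SBT1.3, which were chosen on that contrast, and the median of the 7 was 0.05 in A2QK, 0.04 in QK, -0.17 in hsfa2 and -0.15 in WT.

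AT3G61820, an aspartyl protease gene, read 5.29 and 5.60 in A2QK, 5.22 and 5.54 in QK, 5.48 and 4.71 in hsfa2 and 4.89 and 5.46 in WT after heat, against 8.38 and 8.43 in A2QK, 7.23 and 7.93 in QK, 7.95 and 7.62 in hsfa2 and 7.54 and 7.55 in WT at 22 °C. The unheated A2QK arrays were the highest, and no heated array reached an unheated one. AT1G01300, of the same family, read 6.02 and 5.49 in A2QK, 7.07 and 6.04 in QK, 6.24 and 6.05 in hsfa2 and 6.87 and 5.79 in WT after heat, against 8.96 and 8.98 in A2QK, 9.13 and 8.72 in QK, 8.28 and 8.33 in hsfa2 and 8.40 and 7.38 in WT at 22 °C. The fall of AT1G01300 was the least even among named members, at -3.21 in A2QK, -2.37 in QK, -2.16 in hsfa2 and -1.57 in WT, a range of 1.65. The A2QK and QK arrays were the highest at 22 °C, and in WT the array numbered 1 was the higher at both temperatures. Heated and unheated arrays lay apart in every line. Of the other aspartyl protease genes, AT3G54400, AT2G03200 and AT3G20015 had mean changes of -1.74, -1.60 and -1.52.

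The class of cell wall and sugar genes held 6 named members, with mean changes from -2.60 to -1.75. BGLU33, of the beta-glucosidases, which release glucose from conjugates, read 4.20 and 4.59 in A2QK, 3.28 and 3.57 in QK, 3.88 and 3.39 in hsfa2 and 2.98 and 2.98 in WT after heat, against 6.83 and 6.52 in A2QK, 6.16 and 6.18 in QK, 6.59 and 6.74 in hsfa2 and 5.39 and 5.30 in WT at 22 °C. WT was the lowest line both heated and unheated. GH9C2, an endoglucanase of glycosyl hydrolase family 9, read 5.65 and 5.32 in A2QK, 5.51 and 6.56 in QK, 5.53 and 5.19 in hsfa2 and 4.92 and 6.75 in WT after heat, against 7.93 and 7.89 in A2QK, 7.21 and 9.11 in QK, 7.81 and 7.96 in hsfa2 and 7.27 and 8.63 in WT at 22 °C. The 2 arrays of GH9C2 lay far apart in QK and WT at either temperature and close together in A2QK and hsfa2, while its changes were close, at -2.42 in A2QK, -2.13 in QK, -2.53 in hsfa2 and -2.11 in WT.

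AT1G02810, a pectin methylesterase gene, read 3.57 and 3.59 in A2QK, 4.14 and 4.00 in QK, 3.27 and 3.10 in hsfa2 and 3.66 and 3.31 in WT after heat, against 6.08 and 6.07 in A2QK, 5.97 and 6.77 in QK, 5.92 and 5.89 in hsfa2 and 5.63 and 5.11 in WT at 22 °C. Its heated levels were lowest in hsfa2. AT2G47550, another pectin methylesterase gene, was among the 3 named members of lowest level at 22 °C, and it changed by -1.70 in A2QK, -2.37 in QK, -1.62 in hsfa2 and -2.17 in WT. AT4G32460, which codes for a wall protein of the DUF642 family that acts with pectin methylesterases, changed by -1.44 in A2QK, -2.76 in QK, -2.12 in hsfa2 and -2.09 in WT. AT1G27930, a methyltransferase gene of the DUF579 family, had the most even fall of the named members, at -1.68 in A2QK, -1.79 in QK, -1.81 in hsfa2 and -1.74 in WT, a range of 0.14.

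Of the 37 glycosyl hydrolase and beta-glucosidase probe sets recognised by symbol, BGLU33 and GH9C2 are members. Heat lowered 7 of the 37 in A2QK, 5 in QK, 5 in hsfa2 and 4 in WT and raised 1 in A2QK, with medians of -0.11, -0.07, -0.08 and -0.09. The 2 members are included in these counts. Outside the members, 5 pectin enzyme probe sets were recognised by symbol or synonym. By limma heat lowered 0 of these in A2QK and 1 each in QK, hsfa2 and WT, and raised 1 in hsfa2.

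Oxidoreductases made up 7 named members, 4 of them class III peroxidases. AT2G18980, a class III peroxidase gene, read 5.77 and 5.57 in A2QK, 6.25 and 6.16 in QK, 6.03 and 5.33 in hsfa2 and 4.75 and 5.29 in WT after heat, against 7.86 and 7.52 in A2QK, 7.65 and 7.70 in QK, 7.74 and 7.56 in hsfa2 and 7.18 and 7.33 in WT at 22 °C. QK held the highest heated arrays and WT the lowest. AT1G30870 (PER7), a peroxidase gene of root hairs, changed by -1.83 in A2QK, -1.54 in QK, -1.66 in hsfa2 and -1.87 in WT. AT1G44970 and AT1G68850 changed by -1.66 and -1.60 on average over the 4 lines. The other 3 were sks15, AT3G56060, an oxidoreductase of the glucose-methanol-choline family, and AT1G72230, a copper-binding cupredoxin, with mean changes of -1.86, -1.79 and -1.68. Outside the members, 5 class III peroxidase probe sets were recognised by symbol or synonym. By limma heat lowered 1 of these in A2QK and 0 in QK, hsfa2 and WT, and raised none. Their medians were -0.06 in A2QK, -0.93 in QK, -0.52 in hsfa2 and -0.73 in WT.

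Leucine-rich repeat proteins and kinases, which include receptors at the cell surface, gave 7 named members. AT3G28040, a receptor-like kinase gene, read 4.51 and 4.65 in A2QK, 4.92 and 5.60 in QK, 4.99 and 5.07 in hsfa2 and 4.70 and 5.77 in WT after heat, against 7.60 and 7.69 in A2QK, 6.84 and 7.85 in QK, 7.64 and 7.54 in hsfa2 and 7.53 and 8.16 in WT at 22 °C. In QK and WT the array numbered 2 was the higher at both temperatures, and no heated array reached an unheated one. DRT100, which codes for a leucine-rich repeat protein, read 7.04 and 6.64 in A2QK, 8.07 and 7.63 in QK, 6.39 and 6.55 in hsfa2 and 7.52 and 7.58 in WT after heat, against 9.45 and 9.39 in A2QK, 9.86 and 10.08 in QK, 8.58 and 8.68 in hsfa2 and 9.50 and 9.17 in WT at 22 °C. It was among the 3 named members of highest level at 22 °C, and hsfa2 was its lowest line at both temperatures. AT4G36180, a receptor-like kinase gene, had its largest change in hsfa2, with -1.91 in A2QK, -1.78 in QK, -3.10 in hsfa2 and -1.80 in WT. AT2G26730, AT1G21590, AT2G45590 and AT1G33590 had mean changes of -1.92, -1.62, -1.61 and -1.45. AT1G33590 was the 1 named member whose heated and unheated arrays overlapped, and it did so in WT, with 7.84 and 6.43 after heat and 9.56 and 7.58 at 22 °C.

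**Figure D3:**
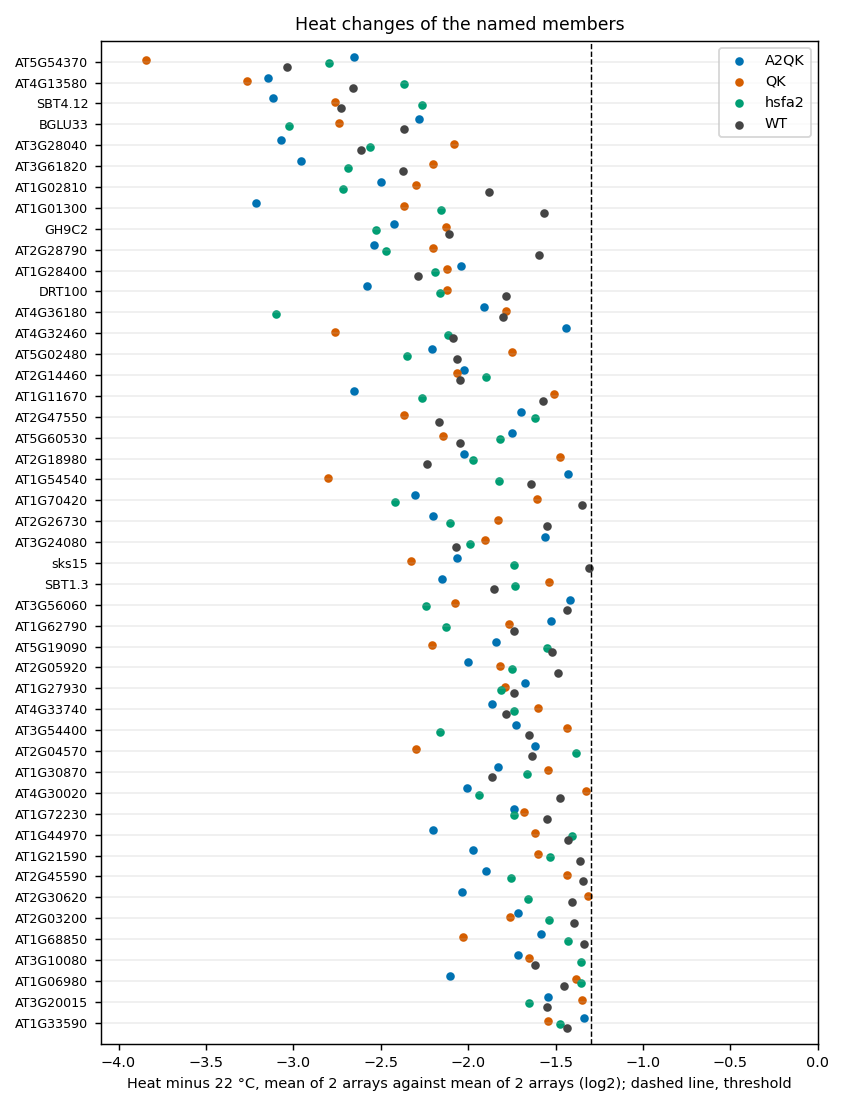
Heat change of each of the 47 named members (rows) in each genotype (coloured points), as the mean of 2 heated arrays minus the mean of 2 unheated arrays on the log2 scale, with the threshold of -1.3 as a dashed line. The widest rows are AT1G01300, AT1G54540, AT4G32460 and AT4G36180, and the narrowest are AT1G27930 and AT2G14460.

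Among other secreted or membrane proteins were 9 named members. AT2G28790, of the thaumatin family of defence proteins, read 4.99 and 4.11 in A2QK, 5.15 and 5.19 in QK, 5.53 and 5.28 in hsfa2 and 5.57 and 5.38 in WT after heat, against 7.25 and 6.92 in A2QK, 7.13 and 7.61 in QK, 7.78 and 7.97 in hsfa2 and 7.06 and 7.08 in WT at 22 °C. The lowest heated value was in A2QK and the highest unheated values in hsfa2. AT1G54540, a hydroxyproline-rich protein gene of low level, changed by -1.43 in A2QK, -2.80 in QK, -1.82 in hsfa2 and -1.64 in WT. AT1G11670, a MATE efflux carrier gene, changed by -2.65 in A2QK, -1.51 in QK, -2.27 in hsfa2 and -1.57 in WT. The lipid transfer gene AT1G62790, the GDSL lipase gene AT2G04570 and the germin-like gene AT3G10080 had mean changes of -1.79, -1.73 and -1.58.

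A smaller number of named members act inside the cell. AT2G30620, whose linker histone H1 packs DNA between nucleosomes, read 7.79 and 7.81 in A2QK, 8.28 and 8.21 in QK, 8.13 and 8.03 in hsfa2 and 8.20 and 7.84 in WT after heat, against 9.78 and 9.89 in A2QK, 9.72 and 9.41 in QK, 9.61 and 9.87 in hsfa2 and 9.78 and 9.07 in WT at 22 °C. Heated arrays lay close together over the 4 lines. Its level at 22 °C was among the 3 highest of the named members. AT3G24080, of the KRR1 family that acts in ribosome assembly, changed by -1.56 in A2QK, -1.90 in QK, -1.99 in hsfa2 and -2.07 in WT, and AT5G19090, with a heavy-metal-associated domain, by -1.84 in A2QK, -2.21 in QK, -1.55 in hsfa2 and -1.52 in WT. Of the members given no role here, AT5G02480 had the highest level at 22 °C and read 7.68 and 7.81 in A2QK, 8.21 and 7.96 in QK, 7.18 and 7.16 in hsfa2 and 8.0 and 7.57 in WT after heat, against 9.98 and 9.93 in A2QK, 10.12 and 9.55 in QK, 9.76 and 9.28 in hsfa2 and 10.19 and 9.50 in WT at 22 °C. The heated hsfa2 arrays were its lowest. AT1G28400 read 6.94 and 6.69 in A2QK, 6.19 and 6.66 in QK, 6.91 and 7.03 in hsfa2 and 5.66 and 5.94 in WT after heat, against 8.94 and 8.76 in A2QK, 8.33 and 8.78 in QK, 9.07 and 9.26 in hsfa2 and 8.25 and 7.92 in WT at 22 °C. WT was its lowest line after heat, and its changes were -2.04 in A2QK, -2.12 in QK, -2.19 in hsfa2 and -2.29 in WT. AT2G14460 changed by -2.02 in A2QK, -2.06 in QK, -1.90 in hsfa2 and -2.05 in WT.

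The 63 members without a name had changes of much the same size as the named ones, which follows in part from the threshold that all passed. Their mean change over the 4 lines ran from -3.52 to -1.44 with a median of -1.93, against -3.08 to -1.45 and -1.88 for the 47 named. Their mean level at 22 °C had a median of 7.14, against 7.25. The 3 steepest members of all are in the unnamed part. By position, 16 of the named genes lie on chromosome 1, 11 on chromosome 2, 8 on chromosome 3, 6 on chromosome 4 and 6 on chromosome 5. All single-gene probe sets on these chromosomes numbered 3451, 2200, 2746, 1962 and 3008 in that order. No pair of the named genes lies within 5 places of each other in the RefSeq gene order of assembly TAIR10.1.

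Of a list of 35 root hair genes 4 were measured, and 1 of these, AT1G30870, is a member chosen on this contrast. Of the other 3, heat lowered 3 in A2QK, 1 in QK, 1 in hsfa2 and 1 in WT by limma and raised none, with medians of -1.97, -1.29, -0.85 and -1.27. EXPA7, a root hair expansin, changed by -1.68 ± 0.28 in A2QK and -1.29 ± 0.28 in QK (log2 ± SE; limma, adjusted p = 0.00165 and 0.0164), against -0.85 ± 0.28 in hsfa2 and -0.90 ± 0.28 in WT, which did not pass. EXPA18, another such expansin, fell in A2QK (-1.97 ± 0.38) and hsfa2 (-1.54 ± 0.38) and gave -1.38 ± 0.38 in QK and -1.27 ± 0.38 in WT. XTH26, a wall xyloglucan enzyme, fell in A2QK (-2.10 ± 0.42) and WT (-2.0 ± 0.42) and gave -1.27 ± 0.42 in QK and -0.69 ± 0.42 in hsfa2. The calls of EXPA18 and XTH26 in A2QK ended without the first unheated A2QK array, and those of EXPA7 in QK, EXPA18 in hsfa2 and XTH26 in WT without the first heated array of the line. The call of EXPA7 in QK also ended without the second heated QK array. Of 22 alternative fits, 4 ended the call of EXPA7 in QK, and 4 ended that of XTH26 in WT.

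The summed linear level of the 4 root hair genes, the member included, ran from 121 to 143.3 in heated A2QK, from 146.8 to 236.2 in heated QK, from 89.4 to 102.3 in heated hsfa2 and from 136.6 to 160.1 in heated WT. At 22 °C it ran from 385.9 to 588.7 in A2QK, from 374.8 to 700.4 in QK, from 221.5 to 298.7 in hsfa2 and from 419.1 to 499.7 in WT. The part of root hair cells in the falls of the members was not tested. Of 26 green tissue genes 2 were measured, the antenna protein gene LHCB4.1 and the Rubisco activase gene RCA, and neither was called in any line by limma (medians of -0.17, -0.16, -0.33 and -0.36 in A2QK, QK, hsfa2 and WT, with 0, 0, 1 and 2 at an unadjusted p under 0.05). The summed linear level of these 2 genes also lay lower after heat without overlap in 3 lines, at 11477 to 11829 in heated A2QK against 12939 to 13119 at 22 °C, 9619 to 9756 in heated hsfa2 against 12102 to 12335 at 22 °C, and 10090 to 11502 in heated WT against 12858 to 14880 at 22 °C. In QK it ran from 10949 to 12692 after heat and from 12502 to 14053 at 22 °C, with overlap. The part of green tissue in the falls of the members was not tested. None of the 21 endodermis and suberin markers was measured through a single-gene probe set.

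**Figure D4:**
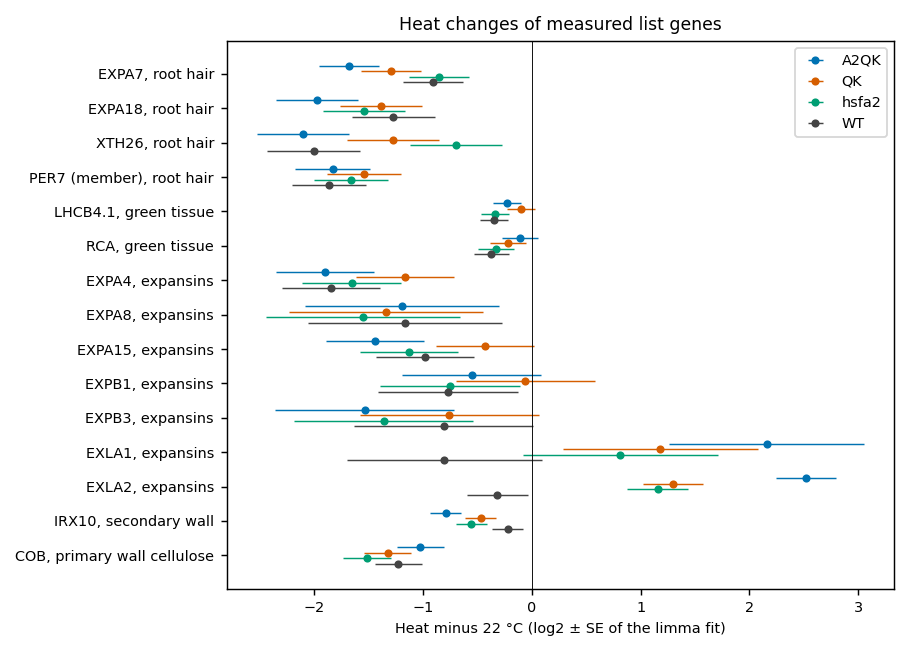
Heat change (log2, bars are SE of the limma fit) of the measured genes of the root hair, green tissue, expansin, secondary wall and primary wall lists, by genotype. Root hair genes, COB and EXPA4 lie left of 0 in the 4 genotypes, the 2 green tissue genes lie near 0, and EXLA2 lies right of 0 in A2QK, QK and hsfa2.

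Cell wall genes outside the members moved in both directions. COB, which guides cellulose deposition in growing cells, fell in all 4 lines by limma, at -1.02 ± 0.22 in A2QK (adjusted p = 0.0075), -1.32 ± 0.22 in QK (0.00368), -1.51 ± 0.22 in hsfa2 (0.000812) and -1.23 ± 0.22 in WT (0.00428). It missed membership in A2QK and WT. EXPA4 fell in A2QK (-1.90 ± 0.45), hsfa2 (-1.65 ± 0.45) and WT (-1.84 ± 0.45) and gave -1.16 ± 0.45 in QK. The expansin-like gene EXLA2 went the other way, with rises of 2.52 ± 0.28 in A2QK, 1.3 ± 0.28 in QK and 1.16 ± 0.28 in hsfa2, and gave -0.32 ± 0.28 in WT. Of 14 expansins on that list, 7 were measured, and 1 was lowered in A2QK, hsfa2 and WT each. Outside that list, EXPA9 fell in A2QK (-1.57 ± 0.39), hsfa2 (-2.14 ± 0.39) and WT (-1.69 ± 0.39) and gave -1.13 ± 0.39 in QK. EXLA3, also outside it, rose in A2QK (0.99 ± 0.26) and was called in no other line. Of 9 xyloglucan enzyme genes recognised by symbol, heat raised 3 in A2QK, XTH16 (1.39 ± 0.22), XTH33 (1.78 ± 0.28) and XTH18 (1.53 ± 0.38), and 2 in QK, XTH16 (2.08 ± 0.22) and XTH33 (2.47 ± 0.28). It lowered XTH26 in A2QK and WT and XTH20 in hsfa2 (-0.94 ± 0.20). EXPA9, EXLA3 and these XTH genes were named after their values were seen. IRX10, a xylan synthesis gene of secondary walls, fell in A2QK (-0.79 ± 0.14) and hsfa2 (-0.55 ± 0.14). The calls of EXPA4 in A2QK and hsfa2 ended without any one of the line's 4 arrays, that of EXLA2 in QK without the first unheated or second heated array, and that of COB in A2QK without the first unheated or first heated array. Of 23 alternative fits, 3 ended the call of EXPA4 in WT, and 3 ended that of EXLA2 in hsfa2.

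The genotype comparisons at one temperature were not used to choose the members, and they were tested over all probe sets with limma. After heat 3 of 110 were called, all higher in QK, where 7.5% of all probe sets were called (4.17% higher and 3.33% lower). At 22 °C 1 of 110 was called, lower in QK, where 2.19% of all probe sets were called (1.22% higher and 0.972% lower). The members' shares were 2.73% and 0.909%. Among the brighter probe sets, those above the median mean level over the 16 arrays, 10.3% were called after heat and 2.75% at 22 °C. Only 80 of the 110 members are among these, so their shares here and below are not over the same set. At an unadjusted p under 0.05 there were 16 members after heat and 19 at 22 °C. The named one was AT2G18980, with 6.25 and 6.16 in heated QK against 4.75 and 5.29 in heated WT, a difference of 1.18 ± 0.24, adjusted p = 0.00986 (log2 ± SE, as for the later differences), and it lost its call without the first heated WT or the first heated QK array. Leaving out 1 array gave 3 to 5 calls after heat and 0 to 6 at 22 °C, with 0 without the second WT or the second QK array at 22 °C and 6 without the first QK array at 22 °C. A fit to the 4 arrays of the 2 groups alone called 0 at either temperature. When replicate numbers were blocked among the WT and QK arrays alone, 13 of 110 were called after heat, beside 14.9% of all probe sets, and 12 of 110 at 22 °C, beside 7.08%, so the members' low share at 22 °C did not hold. The median member was higher in QK by 0.11 after heat and 0.19 at 22 °C, where the median of all probe sets after heat was 0.01.

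A2QK carries the added HSFA2 in a single line. Added HSFA2, this single line and the deviation that QK arrays share with WT arrays, given below, cannot be told apart here. In A2QK against QK, 16 of 110 members were called after heat, 10 higher and 6 lower. This share of 14.5% stood beside 12.3% of all probe sets (6.2% higher and 6.12% lower). At 22 °C 5 were called, 4 higher and 1 lower, or 4.55% beside 9.09% (5.17% higher and 3.92% lower). Among brighter probe sets 17% were called after heat and 13.3% at 22 °C. AT4G32460, the DUF642 wall protein gene, read 7.71 and 7.15 in A2QK at 22 °C, against 10.01 and 10.62 in QK, a difference of -2.88 ± 0.30, adjusted p = 0.000353. After heat it was at 6.16 and 5.82 in A2QK, against 7.65 and 7.45 in QK (-1.56 ± 0.30, adjusted p = 0.0054). The arrays of the 2 lines did not overlap at either temperature. After heat 4 members were called without the second heated A2QK array, where AT4G32460 lost its call, 9 without the first heated A2QK array and 10 without the second heated QK array, and at 22 °C 2 without either A2QK array. A fit to the 4 arrays of the 2 groups alone called 9 after heat and 3 at 22 °C.

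AT2G14460 was higher in A2QK than in QK at both temperatures: 4.53 and 4.34 against 3.01 and 3.17 after heat (1.34 ± 0.18, adjusted p = 0.000463), and 6.37 and 6.55 against 5.23 and 5.07 at 22 °C (1.31 ± 0.18, adjusted p = 0.0014). AT4G36180 and the aspartyl protease gene AT3G20015 were likewise higher at both, by 0.98 ± 0.19 and 1.00 ± 0.23 at 22 °C. SBT1.3 was higher at 22 °C (0.85 ± 0.18, adjusted p = 0.0131). After heat, AT3G56060 (1.71 ± 0.39, adjusted p = 0.0141) and BGLU33 (0.97 ± 0.20, adjusted p = 0.00811) were higher in A2QK. DRT100 (-1.01 ± 0.19, adjusted p = 0.00551) and AT3G54400 (-0.68 ± 0.20, adjusted p = 0.0424) were lower in A2QK after heat. Leaving out 1 array of the groups compared ended the calls of AT3G20015 and AT4G36180 at 22 °C (either A2QK array or the first QK array), and those of AT3G56060 (either heated A2QK array or the first heated QK array), BGLU33 and DRT100 (the second heated A2QK array or the first heated QK array) and AT3G54400 (any of the 4 arrays) after heat. AT3G54400 lost this call in 14 of 23 alternatives tried.

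The hsfa2 line differed from WT at 12 of 110 members after heat, 4 higher and 8 lower, and at 13 at 22 °C, 6 higher and 7 lower. These shares of 10.9% and 11.8% stood beside 8.01% of all probe sets after heat (4.18% higher and 3.83% lower) and 7.9% at 22 °C (3.98% higher and 3.92% lower), and beside 10.5% and 11.6% of the brighter ones. AT4G32460 differed most of the named members at both temperatures, at 5.18 and 4.59 in heated hsfa2 against 6.97 and 7.51 in heated WT (-2.35 ± 0.30, adjusted p = 0.00164), and at 6.92 and 7.09 against 9.56 and 9.10 at 22 °C (-2.32 ± 0.30, adjusted p = 0.00156). The GDSL lipase gene AT2G04570 was lower in hsfa2, with a difference of -1.23 ± 0.30, adjusted p = 0.0317 after heat and -1.48 ± 0.30, adjusted p = 0.0134 at 22 °C. DRT100 was lower at both temperatures (-1.08 ± 0.19, adjusted p = 0.00848 after heat), and AT3G54400 after heat (-1.21 ± 0.20, adjusted p = 0.00497).

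Higher in hsfa2 than in WT were AT2G14460 (1.55 ± 0.18, adjusted p = 0.000916 after heat, 1.4 ± 0.18, adjusted p = 0.00139 at 22 °C) and AT1G28400 (1.17 ± 0.22, adjusted p = 0.00938 and 1.08 ± 0.22, adjusted p = 0.0124). SBT1.3 was higher after heat (0.76 ± 0.18, adjusted p = 0.0255). At 22 °C AT4G36180 (1.57 ± 0.19, adjusted p = 0.00116) and BGLU33 (1.32 ± 0.20, adjusted p = 0.00328) were higher. For AT4G36180 the arrays read 6.46 and 6.74 in hsfa2 at 22 °C, against 4.91 and 5.14 in WT, and 3.34 and 3.66 in heated hsfa2, against 3.21 and 3.23 in heated WT. Of the members called between hsfa2 and WT, 8 were called the same way at both temperatures, 3 higher and 5 lower, and none oppositely. For A2QK against QK 4 were called at both, 3 higher and 1 lower. For hsfa2 against WT, 6 were called after heat without either WT array and 7 without the second hsfa2 array, and at 22 °C 4 without either hsfa2 array and 8 without the second WT array. A fit to the 4 arrays of the 2 groups alone called 0 at either temperature. Leaving out 1 such array also ended calls of AT2G04570 and, after heat, of AT1G28400 and SBT1.3, and DRT100 lost its call at 22 °C under most of the alternatives tried.

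**Figure D5:**
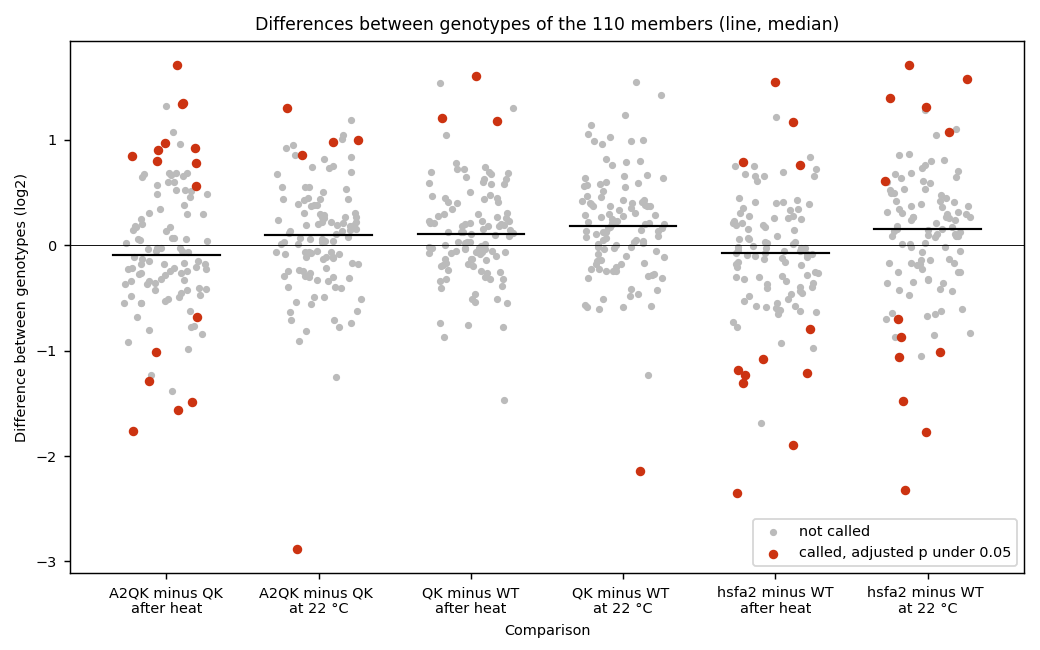
Difference between genotypes (log2, vertical axis) of each of the 110 members in 6 comparisons, with called members in red, others in grey and the median as a line. The lowest point in A2QK against QK at 22 °C, at -2.88, is AT4G32460, and the medians lie between -0.09 and 0.19.

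Some members were called in hsfa2 against WT and also in A2QK against QK, comparisons that share no array. At 22 °C the 3 members called in both were AT4G36180, AT4G32460 and AT2G14460, which are 23.1% of the 13 and 60% of the 5. Over all probe sets 853 were called in both, 47.5% and 41.2% of those lists, and 99.1% of the 853 took the same direction. After heat 5 members were called in both, DRT100, AT4G32460, AT2G14460, AT3G54400 and an unnamed one, or 41.7% of the 12 and 31.2% of the 16, beside 586 of all probe sets, 32.2% and 20.9% of the lists, of which 87.2% took the same direction. The members called in both took the same direction, as most of all probe sets did. Of these members, AT3G54400 lost its call in A2QK against QK under most of the alternatives tried, as given above. The WT and QK arrays that hsfa2 and A2QK were set against are not independent of each other. Among the WT and QK groups, same-numbered arrays deviated together from their group means (r over probe sets of 0.53 to 0.79), against -0.02 to 0.06 for hsfa2 groups with any other and -0.02 to 0.15 for A2QK groups with any other. The part of a shared WT and QK deviation in these calls was not tested.

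Across the 6 comparisons 82 of the 110 members were called in none, 13 in 1, 10 in 2, 3 in 3 and 2 in 4. The share called in none was 74.5%, beside 73.7% of all probe sets, and the share called in 4 was 1.82%, beside 1.99%. The 2 called in 4 were AT4G32460 and AT2G14460. AT2G14460 combined differences between lines with an even fall: heat changed it by -2.02 in A2QK, -2.06 in QK, -1.90 in hsfa2 and -2.05 in WT. AT4G32460 combined them with an uneven one, at -1.44 in A2QK, -2.76 in QK, -2.12 in hsfa2 and -2.09 in WT.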

How the data were processed

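Biotin-labelled cRNA of whole seedlings was hybridised to 16 Affymetrix arrays, 2 for each of 8 groups. RMA gave the deposited log2 values, per the submitters' processing notes; its version and chip definition were not given in the sources used here. Of 22810 probe sets, 64 controls were left out. The probe annotation listed 13513 of the rest with a single gene, 503 with several and 8730 with none, and 13436 of the single genes matched RefSeq TAIR10.1, used for names and gene order only.

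The members and the gene lists were chosen with earlier results of these data known, and the roles of locus-coded members were noted after the member list was seen. Members were found from group means with a threshold of -1.3. All probe sets were fitted in limma 3.58.1 (R 4.3.3; lmFit and eBayes, a mean for each group, 8 residual and 3.37 prior degrees of freedom), two-sided, with Benjamini-Hochberg adjustment within a comparison and calls at an adjusted p under 0.05. The fit was tested on simulated data with independent noise on each array. The simulation lacked the deviation shared by WT and QK arrays, so it cannot show how the fit behaves under it. Arrays have no read depth, and their number limits the precision. SDs are over 2 arrays and SEs come from the fit.

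Named members were the 12 steepest, those nearest the threshold, those with the widest and narrowest range over lines, up to 3 called each way in each genotype comparison, those in lists and those of highest or lowest level. The other named members were given by class after their values were seen. The aquaporin (19 genes), mineral nutrient (18) and auxin transport (11) lists had no measured gene, and the single measured genes of the root triterpene (8) and glucosinolate (12) lists had no call and no unadjusted p under 0.05 in limma. Alternatives were other thresholds, scalings, a filter on dim probe sets, an intensity trend, replicate blocks, fits to fewer arrays and leaving out each array.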

Additional observations from a re-analysis of the deposited data

Results flagged for a closer look

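The 47 named members were screened in QK against WT, hsfa2 against WT and A2QK against QK. Other probe sets were not screened, so no share over all of them stands beside the count. For 5 named members the measured difference between lines had opposite signs at the 2 temperatures, with no overlap of the arrays compared at either. None of these 10 differences passed limma's threshold, and the difference between temperatures was not tested. The heat changes also chose the members. AT2G28790, of the thaumatin family, gave QK minus WT values of -0.30 after heat and 0.31 at 22 °C. AT1G02810, a pectin methylesterase gene, gave hsfa2 minus WT values of -0.30 after heat and 0.53 at 22 °C. For A2QK minus QK, the subtilase gene AT4G30020 gave -0.25 after heat and 0.43 at 22 °C, the kinase gene AT2G45590 gave -0.22 and 0.24, and the linker histone gene AT2G30620 gave -0.45 and 0.27. At an unadjusted p under 0.05, 1 of the 10 passed, AT4G30020 at 22 °C.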

How the results depend on the processing

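The number of members was 313 at a threshold of -1 and 63 at -1.5, 72 with array medians set equal, 58 where both same-numbered differences had to pass, and 93 to 119 when 1 array was left out (93 without the first and 119 without the second unheated WT array). Of the members, 48 stayed under all 16 such settings.

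With the replicate number as a block, members called between QK and WT numbered 5 after heat and 4 at 22 °C, and list genes called in heated QK 5. With the replicate block within WT and QK only, calls were 13 after heat and 12 at 22 °C for QK against WT, 28 and 33 for hsfa2 against WT, and 29 and 20 for A2QK against QK, and list genes 12 in QK and 16 in WT. Beside these, 14.9% and 7.08%, 18% and 18.5%, and 22.8% and 21.7% of all probe sets were called. The labels do not say that the numbers pair arrays.

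Fitted on the groups compared alone, calls were 0 and 0 for QK against WT, 0 and 0 for hsfa2 against WT, and 9 and 3 for A2QK against QK, after heat and at 22 °C, with list genes 19 in A2QK and 0 in QK. Fewer residual degrees of freedom remain in such fits. QK against WT after heat gave 5 with array medians equal and 5 with quantile normalization. A2QK against QK at 22 °C gave 3 among brighter probe sets.

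Leaving out 1 array gave 3 to 5 and 0 to 6 calls for QK against WT, 6 to 14 and 4 to 14 for hsfa2 against WT, and 4 to 18 and 2 to 7 for A2QK against QK, after heat and at 22 °C. List genes called numbered 7 to 14 in A2QK, 1 to 10 in QK, 8 to 13 in hsfa2 and 8 to 11 in WT.

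Array medians set equal moved the median heat change of all probe sets to 0.19 in A2QK, 0.10 in QK, 0.21 in hsfa2 and 0.14 in WT, and the share of heat calls that were higher to 66.2%, 48.1%, 68.4% and 57%, against 41.7%, 36.7%, 40.3% and 38.3% as deposited. After heat that share became 41.1% against 55.6% for QK against WT, 67.3% against 52.1% for hsfa2 against WT and 61% against 50.3% for A2QK against QK. Of 884 recomputed values of single genes, 772 kept their call, 112 lost it and 0 reversed. The causes of these changes were not tested.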
